A study of Mus musculus with 6 samples.

Results

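Genes of the SLC4, SLC8, SLC9, SLC12 and SLC26 families, which move acid, base, sodium and chloride across membranes, were followed in sorted ureteric bud cells of the mouse embryo at E16.5. The ureteric bud grows and branches into the collecting ducts of the kidney. Every gene whose symbol starts with the name of one of these families was taken, except Slc4a1, Slc4a9 and Slc26a4, which are known as genes of intercalated cells. This gave 43 of the 17189 genes in the deposited table. Of the 43, 40 encode transporters and 3 encode accessory proteins whose symbols carry a family name (Slc4a1ap, Slc9a3r1 and Slc9a3r2). The conditional knockout (cKO) cells carried the Hoxb7Cre-GFP transgene with both Ash2l alleles floxed (Ash2l F/F), and the control cells carried the same transgene with 1 floxed allele (Ash2l F/+). Both groups therefore carried the Cre recombinase, driven by Hoxb7, and no embryo received a treatment. ASH2L belongs to the enzyme complexes that place methyl groups on lysine 4 of histone H3. Each genotype had 3 libraries, which the labels call biological replicates without saying whether a replicate was 1 embryo or a pool.

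Bicarbonate transporters of the SLC4 family and sodium-proton exchangers of the SLC9 family set the pH of the cell and carry acid or base across epithelia. Cation-chloride cotransporters of the SLC12 family couple chloride to sodium or potassium and control cell volume, and SLC26 proteins exchange chloride, bicarbonate, sulfate or oxalate. SLC8 proteins exchange sodium for calcium. In the mature collecting duct, intercalated cells secrete acid or bicarbonate while principal cells take up sodium and water.

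Ash2l, the targeted gene (Entrez Gene 23808), had 451, 292 and 214 counts in cKO replicates 1, 2 and 3, against 1933, 1853 and 1624 counts in the controls. It fell by 2.43 on the log2 scale (SE 0.284, edgeR adjusted p = 0.00786). Library totals ran between 9620235 and 10538314 counts. cKO replicate 3 stood apart: 11738 genes passed 10 counts in all the remaining libraries, and 1453 of them (12.4%) were listed at 0 in it, where no other library had over 3 such genes. For the named tested genes among the 43 that were at 0 in it, fold changes are given with and without it. Ddx3y, Uty and Kdm5d, on the Y chromosome, had reads in each control library and none in any cKO library. Y-linked reads, and with them embryo sex, therefore cannot be told apart from genotype in any fold change given here. The summed level of 14 markers of the ureteric epithelium lay between 6122 and 7074 CPM (counts scaled to library size) in cKO libraries and between 10611 and 11837 CPM in controls, and none of these markers was at 0 in any library.

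The transporter genes were lowly to moderately expressed. FPKM, the count scaled to gene length and library size, allows levels to be compared between genes. The accessory gene Slc9a3r1, which encodes the scaffold protein NHERF1 that anchors transporters at the apical membrane, had the highest level, with 50.5 FPKM in cKO and 75.2 FPKM in controls. Among the transporters the highest control means were 9.52 FPKM for Slc4a2, 9.25 FPKM for Slc12a7, 9.24 FPKM for Slc26a2 and 8.34 FPKM for Slc12a4. The first 3 of these did not differ beyond the spread between control libraries, since the SD of Slc4a2 alone was 2.5 FPKM. Slc8b1 (5.04 FPKM), Slc26a11 (4.89 FPKM) and Slc9a2 (3.56 FPKM) followed in controls. In cKO cells the transporter gene with the highest mean was Slc4a11, at 8.66 FPKM, against 0.885 FPKM in controls.

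**Figure D1:**
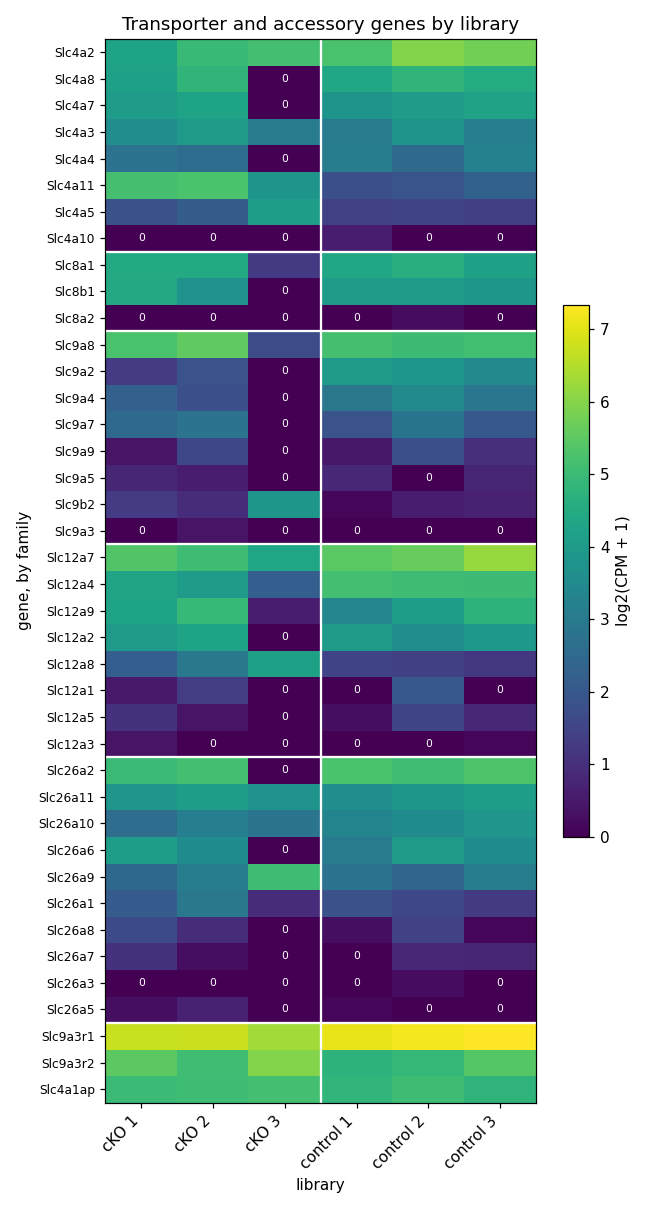
Level of 40 of the 43 genes in every library, as log2(CPM + 1), with the 3 cKO libraries left of the 3 control libraries and genes grouped by family and ordered by control mean. A printed 0 marks a gene with no counts. cKO replicate 3 has 0 counts for 22 of the 40 genes shown, and Slc4a11 is higher in all 3 cKO libraries than in any control.

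Of the 43 genes, 30 passed the filter on low counts and were tested with edgeR's quasi-likelihood test, with p-values adjusted over all 13047 genes tested. Of these 30, 1 rose, none fell and 29 were not called. Over all genes tested, 7.11% were called, 3.52% higher and 3.59% lower in cKO, so that the share of called transporter genes was not above that of genes at large. At an unadjusted p under 0.05, 2 of the 30 were higher and 5 lower in cKO. DESeq2 called 2 higher and 2 lower, and limma voom with library weights called 2 higher and 4 lower. Without cKO replicate 3, 34 of the 43 genes were tested, of which 1 rose, 6 fell and 27 were not called, against 28.5% of all 13660 genes called (13.7% higher and 14.9% lower). The median log2 fold change was -0.29 over the 30 genes with all libraries, against -0.036 over all genes, and 0.10 over the 34 genes without cKO replicate 3, against 0.0082 over all genes. With any other single library left out, no transporter or accessory gene was called, and the calls over all genes numbered between 121 and 443.

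Slc4a11 (Entrez Gene 269356) encodes an SLC4 protein that carries protons or ammonia and little or no bicarbonate, known from the corneal endothelium and from the kidney. It had 346, 370 and 130 counts in cKO replicates 1, 2 and 3, against 25, 29 and 39 counts in control replicates 1, 2 and 3. Every cKO library was above every control, and cKO replicate 3 was the lowest of its group. Its level averaged 28.6 ± 13.6 CPM in cKO and 3.01 ± 0.713 CPM in controls (SD, n = 3 each). Its log2 fold change by edgeR was 3.24 (SE 0.529, adjusted p = 0.0192), and 3.58 without cKO replicate 3 (SE 0.279, adjusted p = 1.45e-06). Without any single other library the log2 fold change lay between 3.0 and 3.44 and the adjusted p between 0.0708 and 0.102, above the threshold of 0.05. All 3 cKO libraries lay above all controls in 16.7% of the genes tested.

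**Figure D2:**
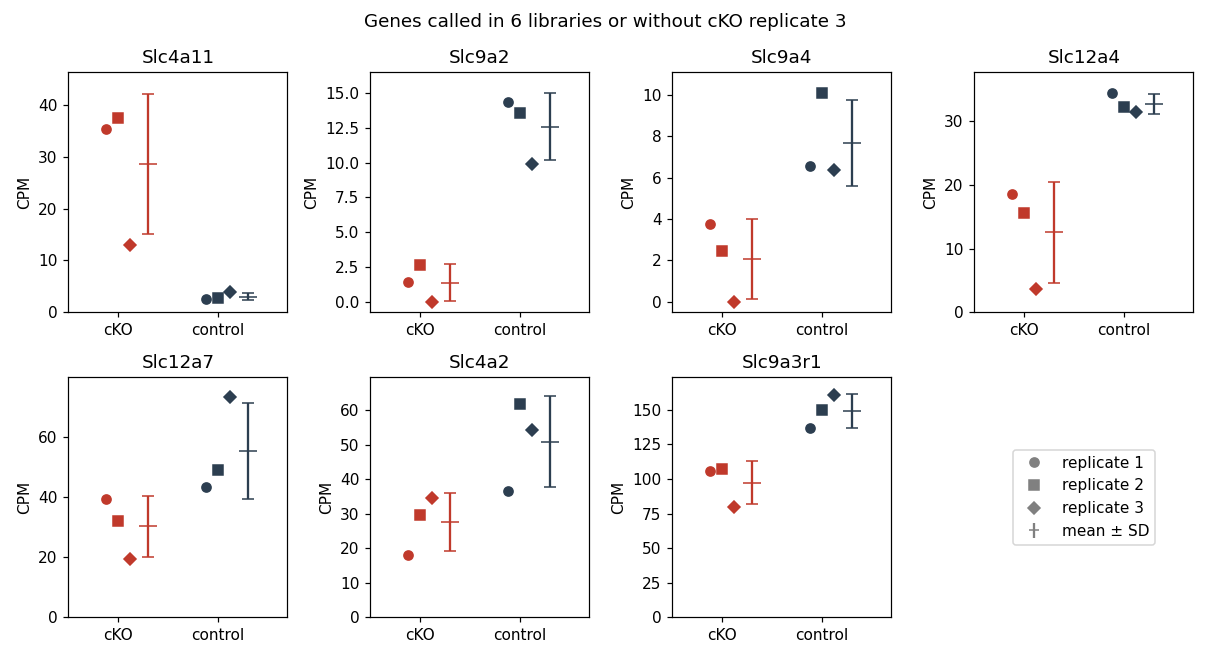
CPM in each library of the 7 genes called with all libraries or without cKO replicate 3, cKO left of control, with a different marker for each replicate and bars for the mean ± SD (n = 3). Slc4a11 is higher in all cKO libraries, and the other 6 genes are lower in all cKO libraries than in any control.

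Slc4a2, the chloride-bicarbonate exchanger AE2, which extrudes base, had 178, 293 and 346 counts in cKO and 371, 650 and 555 counts in controls. Every cKO library was below every control, although the highest cKO library came near the lowest control. The mean was 27.5 ± 8.4 CPM in cKO and 50.8 ± 13.1 CPM in controls (SD, n = 3 each), with a log2 fold change of -0.89 (SE 0.318, edgeR adjusted p = 0.157). It fell by 1.09 when cKO replicate 3 was left out (SE 0.26, edgeR adjusted p = 0.00737). Slc4a3, the related exchanger AE3, had 108, 143 and 74 counts in cKO and 74, 135 and 82 counts in controls, and these overlapped (log2 fold change 0.23, SE 0.492).

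The sodium-bicarbonate transporters bring base into the cell or, in the proximal tubule, out of it. Slc4a8 had 169, 267 and 0 counts in cKO against 203, 283 and 223 in controls, Slc4a7 had 149, 177 and 0 in cKO against 132, 161 and 180 in controls, and Slc4a4 had 58, 50 and 0 in cKO against 78, 51 and 85 in controls. In cKO replicates 1 and 2 these genes lay within or near the range of the controls, and all 3 were at 0 in cKO replicate 3. With all libraries their log2 fold changes were -0.63 (SE 1.35) for Slc4a8, -0.47 (SE 1.36) for Slc4a7 and -0.92 (SE 1.37) for Slc4a4. Leaving out cKO replicate 3 gave -0.054 (SE 0.252), 0.11 (SE 0.259) and -0.34 (SE 0.406), and none was called in either test. Slc4a5 went the other way in cKO replicate 3: it had 25, 34 and 160 counts in cKO against 17, 19 and 16 in controls, with a log2 fold change of 2.12 (SE 0.932, edgeR adjusted p = 0.238), and 0.82 without that library (SE 0.669). Slc4a10, of neurons, had 5 counts in 1 control and none elsewhere, and was not tested.

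Plasma membrane sodium-proton exchangers extrude acid. Slc9a2 (NHE2, Entrez Gene 226999) had 14, 26 and 0 counts in cKO replicates 1, 2 and 3, against 146, 143 and 101 counts in the controls. The groups lay far apart, also without the library at 0. It averaged 1.36 ± 1.32 CPM in cKO and 12.6 ± 2.39 CPM in controls (SD, n = 3 each). With all libraries the log2 fold change, -3.20, had a wide error (SE 1.27, edgeR adjusted p = 0.193). Without cKO replicate 3 it fell by 2.63 (SE 0.421, adjusted p = 0.000454), and with all libraries it was also called by DESeq2 (adjusted p = 0.0371) and by limma voom with library weights (0.011).

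Slc9a4 (NHE4), a basolateral exchanger, had 37, 24 and 0 counts in cKO against 67, 106 and 65 in controls. Its groups did not overlap, and edgeR gave -1.88 on the log2 scale (SE 1.34, adjusted p = 0.474). When cKO replicate 3 was left out it fell by 1.31 (SE 0.45, edgeR adjusted p = 0.0433). Slc9a2 and Slc9a4 are next to each other in RefSeq's gene order for the build GRCm38.p6. Mfsd9, the next gene beyond Slc9a2 and no SLC9 gene, chosen after its values were seen, fell by 1.76 without cKO replicate 3 (SE 0.321, edgeR adjusted p = 0.0012), with a log2 fold change of -2.33 in all libraries (SE 1.29, adjusted p = 0.346). On the other side of the pair, Il1rl1 and Il1rl2 rose without cKO replicate 3, Il1rl2 by 1.17 (SE 0.371, edgeR adjusted p = 0.03). With all libraries Il1rl2 had a log2 fold change of 0.60 (SE 1.23, edgeR adjusted p = 0.825), and Il1rl1 was not tested. Without cKO replicate 3 the neighbours therefore did not move one way. Slc9a3, the apical exchanger of the proximal tubule, had 3 counts in 1 cKO library and none in any other library, and Slc9a5 had at most 8 counts, so neither was tested.

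Exchangers of endosomes and the Golgi apparatus showed no call. Slc9a8 had 357, 454 and 23 counts in cKO against 358, 332 and 346 in controls, and its groups overlapped. On the log2 scale edgeR gave it -0.24 (SE 0.859) with all libraries and 0.29 (SE 0.181) without cKO replicate 3. Slc9a7 had 46, 59 and 0 counts in cKO against 27, 65 and 31 in controls (log2 fold change -0.15, SE 1.44, and 0.42, SE 0.509, without cKO replicate 3). Slc9b2 did not pass the filter. It had 14, 9 and 137 counts in cKO against 1, 5 and 6 in controls, so that every cKO library was above every control and cKO replicate 3 far above the other two. With no filter edgeR gave 3.75 on the log2 scale (SE 1.48, adjusted p = 0.22). Slc9a9 had at most 26 counts in any library.

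Both sodium-calcium exchanger genes with appreciable counts were near the control level in cKO replicates 1 and 2. Slc8a1 (NCX1), of the plasma membrane, had 210, 210 and 14 counts in cKO against 195, 244 and 178 in controls, and Slc8b1, of mitochondria, had 203, 124 and 0 in cKO against 155, 164 and 141 in controls. Their log2 fold changes were -0.44 (SE 0.851) and -0.42 (SE 1.37) with all libraries, and 0.093 (SE 0.231) and 0.15 (SE 0.278) without cKO replicate 3. Slc8a2 had 2 counts in 1 control and none elsewhere.

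Potassium-chloride cotransporters of the SLC12 family let chloride out of the cell. Slc12a4 and Slc12a7 fell without cKO replicate 3, and Slc12a5, of neurons, had at most 20 counts. The upstream sequences of Slc12a4 and Slc12a7 are shown because these paralogs fell in the same test and have entries in RefSeq's promoter table for GRCm38.p6. Each is the 250 bases before a start site, 5′ to 3′ on the gene's strand, and capitals mark CG dinucleotides. The window of Slc12a4 is chr8:105966116-105966365, minus strand, and that of Slc12a7 is chr13:73763447-73763696, plus strand, the second of its 2 listed starts. The bases just after this Slc12a7 start occur in the joined GENCODE transcript sequences, and those after the Slc12a4 start do not. Whether either is the start of a GENCODE transcript was not checked.
Slc12a4: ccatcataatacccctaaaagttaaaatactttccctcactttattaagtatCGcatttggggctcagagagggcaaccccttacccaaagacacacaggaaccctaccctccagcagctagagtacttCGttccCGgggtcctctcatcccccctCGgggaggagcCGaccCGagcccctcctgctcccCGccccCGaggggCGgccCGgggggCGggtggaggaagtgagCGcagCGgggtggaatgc
Slc12a7: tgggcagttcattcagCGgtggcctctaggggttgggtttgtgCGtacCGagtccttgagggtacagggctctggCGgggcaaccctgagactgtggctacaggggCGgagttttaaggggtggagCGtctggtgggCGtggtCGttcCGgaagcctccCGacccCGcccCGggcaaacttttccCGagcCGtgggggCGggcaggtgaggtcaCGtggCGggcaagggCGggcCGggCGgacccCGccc

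The Slc12a4 window held 13 CG dinucleotides and that of Slc12a7 held 21, against a median of 9 in the 41 windows found for 32 of the 43 genes and of 6 in all 32851 windows of the table. The GC box GGGCGG, read on both strands, occurred in both windows and in 32.7% of all windows. Of the other genes that fell without cKO replicate 3, Slc4a2 had 28 and 16 CG dinucleotides in its 2 windows and Slc9a3r1 had 20. Slc9a2 and Slc9a4 had no window, and the window of the other listed Slc12a7 start had 15. These counts describe the windows and were not tested.

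Slc12a4 (KCC1) had 182, 154 and 36 counts in cKO against 351, 339 and 322 counts in controls. All cKO libraries were far below the controls, which lay close together. It averaged 12.6 ± 7.95 CPM in cKO and 32.7 ± 1.55 CPM in controls (SD, n = 3 each). With all libraries edgeR gave a log2 fold change of -1.38 (SE 0.57, adjusted p = 0.211), and without cKO replicate 3 it fell by 0.94 (SE 0.208, adjusted p = 0.00421). Slc12a7 (KCC4), a cotransporter of acid-secreting cells of the collecting duct, had 386, 316 and 195 counts in cKO and 441, 515 and 751 counts in controls. The groups did not overlap, but control replicate 1 was close to cKO replicate 1. Its mean was 30.3 ± 10.1 CPM in cKO and 55.2 ± 16.0 CPM in controls, its log2 fold change was -0.86 (SE 0.331, adjusted p = 0.18), and without cKO replicate 3 it fell by 0.64 (SE 0.223, adjusted p = 0.0475).

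Sodium-dependent chloride cotransporters bring chloride in. Slc12a2 (NKCC1) had 141, 179 and 0 counts in cKO against 151, 116 and 143 in controls, with a log2 fold change of -0.29 (SE 1.37) with all libraries and 0.29 without cKO replicate 3 (SE 0.271, edgeR adjusted p = 0.471). Slc12a1 (NKCC2), which defines the thick ascending limb, had 4, 15 and 0 counts in cKO against 0, 32 and 0 in controls, and Slc12a3 (NCC), which defines the distal convoluted tubule, had at most 3 counts in any library. Of these transporters of other nephron segments, Slc12a3 was at or near 0 in both groups, and the Slc12a1 counts lay mostly in control replicate 2 and cKO replicate 2. Neither passed the filter with all libraries. Slc12a8 is an SLC12 protein of less certain substrate. It had 35, 66 and 172 counts in cKO against 18, 17 and 13 in controls, with every cKO library above every control and cKO replicate 3 the highest. EdgeR gave it a log2 fold change of 2.55 (SE 0.815, adjusted p = 0.119), and 1.71 without cKO replicate 3 (SE 0.609, adjusted p = 0.0501). DESeq2 (adjusted p = 0.0168) and limma voom with library weights (0.0475) called it. Slc12a9 had 177, 288 and 5 counts in cKO against 98, 167 and 264 in controls, and overlapped (log2 fold change -0.10, SE 1.11, and 0.46, SE 0.362, without cKO replicate 3).

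**Figure D3:**
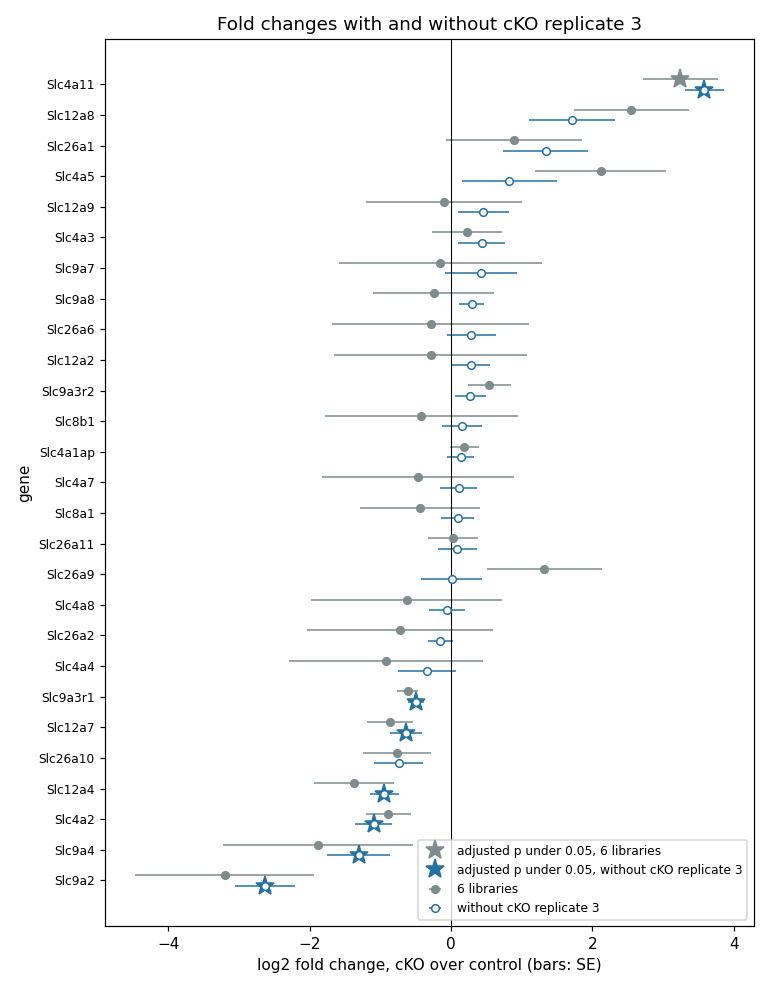
Log2 fold change, cKO over control, of 27 of the 30 tested genes, with all libraries (grey, filled) and without cKO replicate 3 (blue, open), with bars for the SE and stars for an edgeR adjusted p under 0.05. Slc4a11 is called in both tests, and 6 genes are called lower without cKO replicate 3.

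No SLC26 gene was called by edgeR with or without cKO replicate 3, by DESeq2 or by limma voom with library weights. At an unadjusted p under 0.05 none of the 6 tested SLC26 genes passed with all libraries, and 1 of 7 did without cKO replicate 3. Slc26a2, a sulfate transporter, was the SLC26 gene with the highest level: it had 307, 338 and 0 counts in cKO against 379, 346 and 396 in controls, with a log2 fold change of -0.73 (SE 1.32) with all libraries and -0.15 without cKO replicate 3 (SE 0.18, edgeR adjusted p = 0.57). Slc26a11 had 129, 157 and 126 counts in cKO against 114, 144 and 163 in controls, with little spread in either group, and a log2 fold change of 0.03 (SE 0.351). Slc26a6, an exchanger of chloride, bicarbonate and oxalate, had 157, 106 and 0 counts in cKO against 72, 154 and 112 in controls, which overlapped (log2 fold change -0.29, SE 1.39, and 0.29, SE 0.344, without cKO replicate 3). Slc26a10 was lower in every cKO library, with 50, 79 and 61 counts in cKO against 91, 113 and 134 in controls, but was not called (log2 fold change -0.77, SE 0.481, adjusted p = 0.405). Slc26a9, a chloride channel or transporter, had 44, 74 and 325 counts in cKO against 60, 44 and 79 in controls. Its log2 fold change was 1.32 (SE 0.811), and 0.0084 without cKO replicate 3 (SE 0.435). Slc26a1, an exchanger of sulfate and oxalate, had 33, 66 and 9 counts in cKO against 26, 21 and 14 in controls, with a log2 fold change of 0.89 (SE 0.964) with all libraries and 1.34 without cKO replicate 3 (SE 0.603, adjusted p = 0.116). Slc26a3, Slc26a5 and Slc26a7 had at most 11 counts and Slc26a8 at most 21 counts in any library.

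Among the accessory proteins, Slc9a3r1 had 1033, 1053 and 798 counts in cKO against 1393, 1572 and 1648 in controls, so that every cKO library was below every control. It averaged 97.4 ± 15.4 CPM in cKO and 149 ± 12.2 CPM in controls (SD, n = 3 each). With all libraries edgeR gave -0.62 on the log2 scale (SE 0.151, adjusted p = 0.0608), and without cKO replicate 3 it fell by 0.50 (SE 0.116, adjusted p = 0.00592). Slc9a3r2, the related scaffold NHERF2, had 434, 327 and 618 counts in cKO against 262, 301 and 421 in controls and overlapped (log2 fold change 0.54, SE 0.304). Slc4a1ap, which is named for binding the SLC4A1 protein and is not a transporter, had 306, 317 and 343 counts in cKO against 278, 341 and 268 in controls (0.18, SE 0.205).

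The groups did not overlap for 10 of the 30 tested genes, 3 higher and 7 lower in cKO, against 37.4% of all genes tested. Without cKO replicate 3, the genes that fell were Slc4a2, Slc9a2, Slc9a4, Slc12a4, Slc12a7 and Slc9a3r1. With all libraries, none of these 6 was called by edgeR (adjusted p between 0.0608 and 0.474), and each was called in 1 of the 6 tests that left out a single library, the one without cKO replicate 3.

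All 30 tested genes had over 10 counts in each of the other 5 libraries, and cKO replicate 3 had 0 counts for 11 of them (36.7%). A count of 0 in this library allows up to 0.299 CPM, for counting error only. Over all such genes the share was 12.4%, but these were expressed higher, with a median of 409 counts in the other libraries against 159 for the transporter and accessory genes. At a mean of 100 to under 200 counts in the other libraries, 5 of 10 of these genes and 344 of 1632 genes at large (21.1%) were at 0, and below 100 counts, 4 of 9 and 858 of 1999 (42.9%). At 200 to under 400 counts, 2 of 8 and 197 of 2158 (9.13%) were at 0, and at 400 or more, 0 of 3 and 54 of 5949 (0.908%). A further 7 of the 30 were not at 0 but more than 2-fold below the mean CPM of cKO replicates 1 and 2. Over all such genes these numbered 1525 of 11738. In the same library 3 of the 30, Slc4a5, Slc12a8 and Slc26a9, had more than 2-fold the mean CPM of cKO replicates 1 and 2, against 7.84% of all such genes. All 3 lay below a mean of 100 counts in the other libraries, where 18.2% of all such genes did so. For 11 of the 30 genes the fold change with all libraries is therefore relative to a group with 1 library at 0.

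**Figure D4:**
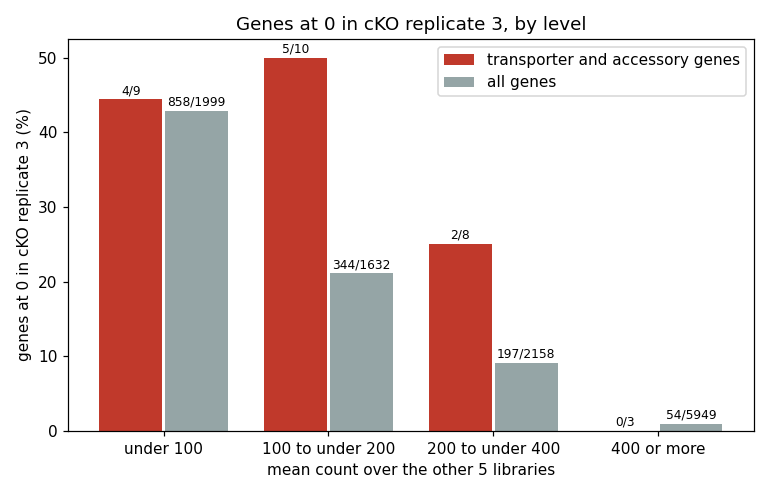
Share of genes with 0 counts in cKO replicate 3, for the transporter and accessory genes and for all genes that passed 10 counts in each of the others, by mean count over the other 5 libraries. Numbers above bars are genes at 0 over genes in the bin. The share falls with level for genes at large, from 42.9% below 100 counts to 0.908% at 400 counts or more.

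The partners of these transporters were also counted, to be read against the 7.11% of all genes called with all libraries and the 28.5% called without cKO replicate 3. Na/K-ATPase, the pump that drives sodium-coupled transport, had 9 tested subunit and FXYD genes, of which 2 fell and none rose. Among them, Atp1b1 averaged 98.0 ± 37.2 CPM in cKO and 243 ± 23.5 CPM in controls (SD, n = 3 each), with a log2 fold change of -1.31 (SE 0.289, edgeR adjusted p = 0.0464). Without cKO replicate 3, 4 of 9 fell and 1 rose. Of 23 proton pump (V-ATPase) genes, 1 rose (Atp6v0e2, 1.58, SE 0.318, adjusted p = 0.0361) and 1 fell (Atp6v1g1, -0.80, SE 0.179, adjusted p = 0.048), and without cKO replicate 3, 5 rose and 7 fell, so that 2 and 12 of the 23 were called. Among the 7 were Atp6v1b1, Atp6v0d2, Atp6v0a4 and Atp6v1g3, subunits of intercalated cells. These subunits had 0 counts in cKO replicate 3, and with all libraries none of them was called (edgeR adjusted p between 0.123 and 0.245).

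Active carbonic anhydrases make bicarbonate and protons, but not every gene of the family encodes an active enzyme. Of 9 tested carbonic anhydrase genes, Car3 rose (log2 fold change 2.69, SE 0.521, edgeR adjusted p = 0.0325) and none fell. Without cKO replicate 3, 1 rose and 1 of 12 fell, Car12 (-0.85, edgeR adjusted p = 0.0355). Of 12 chloride channel genes, 1 rose, and Ano1, a calcium-activated channel, fell (-0.83 on the log2 scale, SE 0.171, adjusted p = 0.0389). Without cKO replicate 3, 2 of the 12 rose and 2 fell, a share near that of all genes. The list for the WNK and SPAK kinases, which switch SLC12 cotransporters, held 14 genes. Among them were others, such as Klhl3, Cab39l, Nedd4l and Lrrc8a, that are not these kinases. None of the 14 was called by edgeR with all libraries, where 1 had an unadjusted p under 0.05. DESeq2 and limma voom with library weights each called 1 higher in cKO. Without cKO replicate 3, edgeR called 2 higher, Cab39l and Lrrc8a, neither of them a WNK or SPAK kinase, and none lower. Each of the 5 named partner genes called with all libraries was also called without cKO replicate 3. With any other single library left out these 5 genes kept their direction but were not called, with edgeR adjusted p up to 0.174.

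Markers of cell types were counted beside these results, against the same shares of all genes (7.11% and 28.5%). The 10 intercalated cell markers summed to between 76.2 and 109 CPM in cKO libraries, against 232 to 435 CPM in controls, and of 6 tested, 2 fell and none rose, while without cKO replicate 3, 6 of 9 fell. Rhcg, an ammonia transporter, made up most of the cKO sum, with 91.3, 101 and 76.2 CPM in cKO against 85.4, 173 and 95.1 CPM in controls. The other 9 markers summed to 4.9, 8.43 and 0 CPM in cKO against 170.4, 262 and 137 CPM in controls. Slc4a9 had 0, 4 and 0 counts in cKO and 318, 536 and 325 counts in controls, Slc4a1 had 0, 0 and 0 in cKO against 16, 11 and 0 in controls, and Slc26a4 had 5, 5 and 0 in cKO against 12, 16 and 3 in controls. Principal cell markers summed to between 814 and 1077 CPM in cKO, against 1555 to 2095 CPM in controls, and 4 of 10 fell, or 7 of 10 without cKO replicate 3. Proximal tubule markers summed to between 81.1 and 89.8 CPM in cKO, against 38 to 51.9 CPM in controls, and of 8 tested, 1 rose and none fell, while without cKO replicate 3, 4 of 9 rose. Loop of Henle and distal tubule markers summed to between 49.1 and 94.5 CPM in cKO and 83.5 and 92.7 CPM in controls. Of 7 tested, Cldn16 rose (log2 fold change 3.88, SE 0.73, edgeR adjusted p = 0.0292) and none fell. Without cKO replicate 3, Cldn16 rose and Sim1 fell. Podocyte markers lay between 20.9 and 44.4 CPM in cKO and 8.74 and 11.9 CPM in controls, with 1 of 3 tested rising and Nphs1, which defines podocytes, at 0 in 2 of 3 cKO libraries and in all controls. Nephron progenitor markers summed to between 19.7 and 23.6 CPM in cKO, against 10.8 to 14.6 CPM in controls. Cited1 was the largest part of the sum in every cKO library, with 129, 118 and 178 counts in cKO against 54, 36 and 61 in controls. Osr1 went the other way, with 21, 27 and 0 counts in cKO against 35, 36 and 48 in controls. Six2 and Eya1 were at 0 in cKO replicates 1 and 3. Of 3 tested, Cited1 rose without cKO replicate 3 and none fell. Blood and immune markers summed to between 57.9 and 85.9 CPM in cKO, and to 41.2 and 54.0 CPM in control replicates 1 and 2 against 428 CPM in control replicate 3. The part of these cell types in the changes of Slc4a11, Slc9a2, Slc12a4 and Slc12a7 was not tested, and in these bulk samples fewer cells of a type and less RNA per cell cannot be told apart.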

How the data were processed

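Sorted ureteric bud cells were profiled by RNA sequencing, 3 cKO and 3 control libraries, made with a stranded mRNA kit per the labels' protocols. The authors deposited raw read counts and FPKM per gene. The submitters' processing notes name HISAT2, HTSeq, Cufflinks, DESeq and GRCm39, without roles, and the sources used here do not give the strand setting of the counting. Reads of overlapping or antisense genes may therefore not have been kept apart. The deposited FPKM values are the counts rescaled by a gene length and a library factor (largest relative deviation 8.62e-08).

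Counts were tested with edgeR 4.0.16 in R 4.3.3: filterByExpr, TMM scaling and the robust quasi-likelihood test with genotype as the only term, Benjamini-Hochberg adjustment over all genes tested and a threshold of 0.05. SEs were taken as the absolute log2 fold change over the root of F, and CPM are TMM-scaled. DESeq2 1.42.0 and limma 3.58.1 served as alternatives. On simulated counts for 13047 genes and 6 libraries, 12.5% of genes changed 2-fold and 48.5% of those changed 4-fold were called, and 65.0% and 92.0% for 13660 genes without cKO replicate 3. The simulation gave every library the same dispersion per gene and changed only genes above a minimum control level. It did not place extra noise or zeros in a single library, as cKO replicate 3 has, so these shares may not hold for the real counts. No replicates were merged, since each pair had a chi-square of at least 10.2 per degree of freedom over genes. The p-values reflect only how much these libraries vary, which may be technical, and floors cover counting error only.

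Same-numbered cKO and control libraries did not deviate together. The genes, lists and naming rule were chosen with earlier results of these data known. Values are given for each gene called with all libraries or without cKO replicate 3 and the 3 highest by FPKM of each family. A few genes are counted but not reported here by name. Promoter sequences are RefSeq's, for GRCm38.p6, matched by Entrez Gene identifier for 32 of 43 genes.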

Additional observations from a re-analysis of the deposited data

How the results depend on the processing

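The alternatives were RLE size factors, DESeq2, no filter, a stricter filter, limma voom with library weights, the replicate block, no robust prior and leaving out each library in turn. Slc4a11 stayed positive in all 13, with log2 fold changes between 3.0 and 3.58, and was called in 7. The number of transporter and accessory genes higher in cKO was 1; it was 2 by DESeq2 and by limma voom with library weights, 0 with the replicate block, and between 0 and 1 with a library left out. The number lower in cKO was 0; it was 2 by DESeq2, 4 by limma voom with library weights, and between 0 and 6 with a library left out, 6 being the value without cKO replicate 3. DESeq2 called Slc4a11, Slc9a2, Slc12a8 and Slc9a3r1, and voom these and Slc4a2 and Slc12a4. The replicate block left 23 of 13047 genes called; with it Ash2l had a log2 fold change of -2.50 (edgeR adjusted p = 0.0537), and Slc4a11 one of 3.14 (adjusted p = 0.123). Deviations of same-numbered libraries correlated at -0.022, 0.025 and -0.00145, so no pairing by number was seen. With 3 libraries per group, 1 of them unlike the others, these values cannot exclude a pairing. The median log2 fold change of the tested transporter and accessory genes lay between -0.87 with the replicate block and 0.10 without cKO replicate 3.

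Sign changed only for genes not called in either setting, in 19 of 351 comparisons of the genes reported here. With limma voom and library weights the log2 fold change was 0.025 for Slc8a1, 0.35 for Slc9a7, 0.24 for Slc9a8, 0.17 for Slc12a2, 0.40 for Slc12a9 and 0.076 for Slc26a6. With a library left out it lay between -0.027 and 0.51 for Slc4a3, -1.01 and 0.11 for Slc4a7, -0.81 and 0.093 for Slc8a1, -1.24 and 0.15 for Slc8b1, -0.75 and 0.42 for Slc9a7, -0.79 and 0.29 for Slc9a8, -0.88 and 0.29 for Slc12a2, -0.88 and 0.46 for Slc12a9, -1.02 and 0.29 for Slc26a6, and -0.10 and 0.15 for Slc26a11. The cause of these shifts was not tested. Of the 43 genes, 13 were too low to test with all libraries.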
